A study of Homo sapiens with 4 samples.

Results

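The BCL2 family decides whether a stressed cell opens the outer membrane of its mitochondria and dies by apoptosis. The 10 family genes examined here were chosen by name. They comprise the survival members BCL2, BCL2L1 (which encodes BCL-xL), MCL1 and BCL2A1, and the death members BCL2L11 (BIM), BAK1, BID, BIK, BMF and BAD. All 10 names were found among the 29655 gene names of the tables, each on a single row, and 9 passed the filter on low values. BIK did not. The libraries came from UMSCC74B cells, an established line labelled as head and neck squamous cell carcinoma (HNSCC), 72 h after delivery of shRNA. There were 2 libraries given control shRNA (genotype WT) and 2 given PRMT5 shRNA (genotype PRMT5 KD), all grown in the same medium. The labels describe transfected plasmids, whereas the methods of the study describe lentiviral particles. No source says whether the libraries of a group came from separate cultures, so the p-values measure only the spread between these libraries.

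In this family, the survival proteins hold the death proteins in check by binding a short helix called BH3. BAK1 is an effector that forms the pores, while BCL2L11, BID, BIK, BMF and BAD carry BH3 alone and act upstream of it. MCL1 protein is known to turn over quickly, and BMF and BCL2L11 are known to be transcribed more in cells that lose attachment or growth factors. Squamous carcinomas are known to rely on MCL1 and BCL-xL for survival. Counts per gene measure transcripts. They do not measure the proteins, and they do not separate the long and short splice forms of MCL1, BCL2L1 or BCL2L11.

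The libraries held between 52185289 and 65964558 estimated counts on named genes. Ribosomal RNA took 15.3% and 14.2% of them in control against 26.2% and 18.02% under the PRMT5 KD label, and its part in the results was not tested. PRMT5 itself had 94.2 and 84.2 CPM in control and 132 and 149 CPM under the PRMT5 KD label, so its transcript went against the label (log2 fold change 0.66, edgeR FDR = 0.00550). The labels say that PRMT5 mRNA and protein were also measured by quantitative PCR and immunoblot, and those measurements were not analysed here. Directions below are by label and would all turn if the labels of the groups were exchanged, which these counts alone cannot settle. In the text a value under the PRMT5 KD label is one from the libraries so labelled. The tissue label was checked against 8 markers of squamous epithelium. KRT5, KRT14, KRT6A and CDH1 were at or below 0.460 CPM in all 4 libraries and KRT17 and SFN at or below 1.80 CPM, while TP63 lay between 1.74 and 6.59 CPM and DSG3 between 18.7 and 43.0 CPM. All 6 fibroblast markers passed the filter, with summed levels of 628 and 727 CPM in control and 87.5 and 97.1 CPM under the PRMT5 KD label. The 5 leukocyte markers summed to 94.7 and 113 CPM in control and 152 and 170 CPM under the PRMT5 KD label. Nearly all of this was CD68, a lysosomal gene that other cells also express, while PTPRC, CD3E and LYZ were at or below 0.140 CPM. The 4 endothelial markers summed to 10.9 and 14.7 CPM in control and 2.10 and 1.15 CPM under the PRMT5 KD label. The part of these marker levels in the results below was not tested. Fewer cells of one kind and less RNA per cell cannot be told apart in such bulk libraries.

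The promoters of the members with the largest changes are shown first, because the account returns to them. RefSeq promoters (GRCh38.p14) were found for 8 of the 10 members, and MCL1 and BIK were not matched. The 250 bases before the start site are given from 5′ to 3′ on the gene's strand. Capitals mark a match on either strand to the letters of an E2F site (TTTCGCGC or TTTGGCGC), a FOXO site (GTAAACA), an NF-kB site (GGG, any 2 bases, TTTCC), an interferon-stimulated response element (GAAA, any 2 bases, GAAA) or a MYC E-box (CACGTG). These motifs were chosen after the values had been seen.
BCL2A1 (chr15:79971197-79971446, minus strand): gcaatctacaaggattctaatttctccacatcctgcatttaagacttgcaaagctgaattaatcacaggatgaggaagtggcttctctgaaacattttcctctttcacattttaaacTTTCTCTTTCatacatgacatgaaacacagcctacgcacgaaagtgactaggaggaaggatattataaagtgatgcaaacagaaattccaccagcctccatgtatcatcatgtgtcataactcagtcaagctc
BCL2L11 (chr2:111120664-111120913, plus strand): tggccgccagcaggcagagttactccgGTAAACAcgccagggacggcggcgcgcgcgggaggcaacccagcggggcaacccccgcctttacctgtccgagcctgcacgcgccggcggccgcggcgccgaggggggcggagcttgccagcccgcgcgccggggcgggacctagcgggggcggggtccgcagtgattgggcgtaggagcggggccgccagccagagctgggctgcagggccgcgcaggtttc
BMF (chr15:40108880-40109129, minus strand): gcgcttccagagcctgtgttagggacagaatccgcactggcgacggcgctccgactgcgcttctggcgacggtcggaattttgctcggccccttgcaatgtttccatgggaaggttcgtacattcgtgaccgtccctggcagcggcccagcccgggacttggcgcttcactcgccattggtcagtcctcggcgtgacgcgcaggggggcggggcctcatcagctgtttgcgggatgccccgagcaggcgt
BAK1 (chr6:33580277-33580526, minus strand): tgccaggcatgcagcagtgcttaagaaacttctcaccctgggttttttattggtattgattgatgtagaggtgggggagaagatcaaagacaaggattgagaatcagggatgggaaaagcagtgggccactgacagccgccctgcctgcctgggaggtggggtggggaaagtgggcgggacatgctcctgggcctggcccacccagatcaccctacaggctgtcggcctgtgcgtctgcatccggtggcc

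BCL2A1 held 1 match to the interferon-stimulated response element, which begins 133 bases before the start. Such a match was present in 3.02% of all 35116 promoters of the same length. BCL2L11 held 1 FOXO match, which begins 223 bases before the start, against 2.98% of all promoters. The BMF promoter shown and the BAK1 promoter held no match to the 5 motifs. Of the matched members not shown, BID held a MYC E-box in some of its promoters, against 6.34% of all promoters. Those of BCL2, BCL2L1 and BAD held no match. Each share is for 1 motif, while 5 were searched, so a match to any of them is more common than each share. The BCL2A1 promoter was poor in G and C (38.8%) and that of BCL2L11 rich (76.8%), against a median of 58.0% over all promoters. Binding was not measured here, and a match is a description of the letters alone.

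Of the 9 members tested, 6 changed, of which 4 rose and 2 fell under the PRMT5 KD label. Among all 11911 genes tested, 45.6% were called by the same rule, 21.2% higher and 24.4% lower, so change was common in this comparison and the members' count must be read against it. Without control replicate 2, only MCL1 and BMF among the members were called, and 3097 genes in all. With a threshold of 1 in place of 0.5 on the log2 fold change, BCL2A1, BCL2L11, BAK1 and BMF were called, 4 of the 9, against 21.5% of all genes, and MCL1 and BCL2 were not. A gene was called where the edgeR quasi-likelihood test, adjusted by Benjamini-Hochberg over all genes tested, gave an FDR under 0.05 and the absolute log2 fold change was at least 0.5. The survival members MCL1, BCL2 and BCL2A1 rose, as did the effector BAK1. The BH3-only members BMF and BCL2L11 fell. BCL2L1 and BAD were not called. BID met the FDR but fell short of the fold threshold. By the FDR alone, 7 of the 9 members passed, against 54.5% of all genes tested. The median log2 fold change of the 9 members was 0.45, against -0.01 over all genes tested. The groups did not overlap for 7 of the 9 members, 5 of them higher and 2 lower, against 80.5% of all genes tested, 39.9% higher and 40.6% lower.

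**Figure D1:**
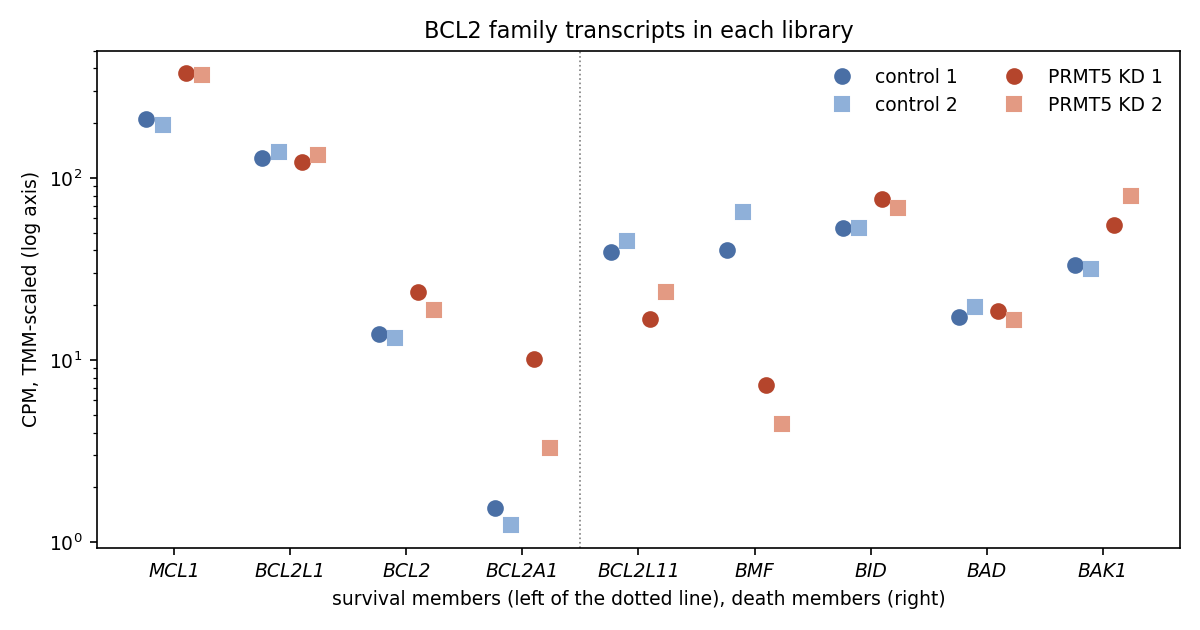
Level of each tested BCL2 family member in the 4 libraries, as TMM-scaled CPM on a log axis, with circles for replicate 1 and squares for replicate 2 (BIK, near 0, is not drawn). The red points of MCL1, BCL2, BCL2A1, BID and BAK1 sit above the blue control points, those of BMF and BCL2L11 sit below, and the points of BCL2L1 and BAD overlap.

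MCL1, a survival protein that binds BAK1 and several BH3-only proteins, had the highest level per length of the 10 members under the PRMT5 KD label. MCL1 (ENSG00000143384.14, GRCh38 chr1:150560895-150579738, minus strand) held 8390 and 9769 counts in the control libraries against 17902 and 17596 in those labelled PRMT5 KD. On the scaled level this was 212 and 195 CPM against 376 and 368 CPM. The groups lay well apart, and the spread within each was small. The means were 203 ± 11.7 CPM (SD, n = 2) and 372 ± 5.75 CPM (SD, n = 2), a 1.83-fold rise (log2 fold change 0.87, standard error 0.12, edgeR FDR = 0.00174). This was higher than the log2 fold change of 88.7% of all genes tested. MCL1 shares 328 exon bases with ADAMTSL4-AS1 on the same strand and 43 with ADAMTSL4 on the other, and these had at most 67 and 1267 counts in any library.

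BCL2, the founding survival gene of the family, was expressed at a low level per length and rose. BCL2 (ENSG00000171791.14, GRCh38 chr18:63123346-63320128, minus strand) had 13.9 and 13.3 CPM in control and 23.6 and 18.7 CPM under the PRMT5 KD label. The lowest value under that label lay above both control values. The log2 fold change was 0.64 (standard error 0.16, edgeR FDR = 0.0158). It lost its call in 3 of the 4 fits that each left out a library. The FDR was 0.0850 without control replicate 1 and 0.116 without control replicate 2, and the log2 fold change was 0.495, just under the threshold, without PRMT5 KD replicate 1.

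BCL2A1, a survival gene best known as a target of NF-kB in blood cells, rose most among the members but from very few counts. BCL2A1 (ENSG00000140379.9, GRCh38 chr15:79960892-79971196, minus strand) held 61 and 62 counts in the control libraries against 485 and 157 in those labelled PRMT5 KD, or 1.54 and 1.24 CPM against 10.2 and 3.28 CPM. The 2 libraries labelled PRMT5 KD were far apart, although both exceeded control. The log2 fold change was 2.28 with a wide standard error of 0.59 (edgeR FDR = 0.0249). It was 1.28 without PRMT5 KD replicate 1 and 2.88 without PRMT5 KD replicate 2, both called. The call was lost without control replicate 1 (2.45, FDR = 0.0862), without control replicate 2 (2.13, FDR = 0.127) and when length and GC trends were removed (1.58, FDR = 0.0636). Its promoter is the one printed above with the interferon-stimulated response element letters.

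BCL2L1, which encodes the survival protein BCL-xL, did not differ between the groups beyond the spread. BCL2L1 (ENSG00000171552.14, GRCh38 chr20:31664452-31723989, minus strand) had 129 and 139 CPM in control and 123 and 133 CPM under the PRMT5 KD label, and the groups overlapped. The log2 fold change was -0.07 with a 95% confidence interval from -0.34 to 0.21 (edgeR FDR = 0.646). ABALON, a gene on the other strand, shares 1735 exon bases with BCL2L1 and has no row of its own in the tables.

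BMF, a BH3-only protein held on the actin motor complex in attached cells, fell more than any other member. BMF (ENSG00000104081.14, GRCh38 chr15:40087890-40108892, minus strand) held 1596 and 3267 counts in the control libraries against 347 and 214 in those labelled PRMT5 KD. As scaled levels these were 40.3 and 65.3 CPM against 7.28 and 4.47 CPM. The control libraries differed from each other, and even the lower of them was far above the others. The mean went from 52.8 ± 17.7 CPM to 5.88 ± 1.99 CPM (SD, n = 2 each), an 8.98-fold fall (log2 fold change -3.17, standard error 0.35, edgeR FDR = 0.00173). Only 1.02% of the genes tested had a lower log2 fold change. The fits that each left out a library gave between -3.53 and -2.77, all called. BMF-AS1 lies on the other strand, shares 461 exon bases with BMF and has no row of its own in the tables.

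BCL2L11 encodes BIM, a BH3-only protein that binds every survival member and can activate BAK1 directly. It fell by a smaller amount than BMF. BCL2L11 (ENSG00000153094.25, GRCh38 chr2:111119378-111168444, plus strand) had 39.4 and 45.3 CPM in control and 16.9 and 23.7 CPM under the PRMT5 KD label, with no overlap. The log2 fold change was -1.06 (standard error 0.19, edgeR FDR = 0.00463), a 2.09-fold fall. Without control replicate 2 the call was narrowly lost (-0.95, FDR = 0.0538). The gene shares 727 exon bases with MIR4435-2HG on the other strand, which has no row of its own in the tables.

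BAK1, the effector that forms pores in the outer mitochondrial membrane, rose. BAK1 (ENSG00000030110.14, GRCh38 chr6:33572547-33580293, minus strand) held 1322 and 1582 counts in the control libraries against 2640 and 3816 in those labelled PRMT5 KD, or 33.4 and 31.6 CPM against 55.4 and 79.7 CPM. The rise was present in both libraries and larger in replicate 2. The log2 fold change was 1.06 (standard error 0.19, edgeR FDR = 0.00461), a 2.08-fold rise. Without control replicate 2 it was 1.02 with the call narrowly lost (FDR = 0.0552). The processed pseudogenes BAK1P1 and BAK1P2 have no rows of their own, and how their reads were assigned is not known.

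BID, a BH3-only protein that caspase 8 cleaves to link death receptors to mitochondria, lay at the edge of the rule. BID (ENSG00000015475.19, GRCh38 chr22:17734138-17774770, minus strand) had 52.8 and 52.9 CPM in control and 76.4 and 68.4 CPM under the PRMT5 KD label. The groups did not overlap, and the log2 fold change was 0.45 (standard error 0.11, edgeR FDR = 0.0155), under the threshold of 0.5. With total counts alone as the scaling it was 0.63 and called. With length and GC trends removed and the replicate number as a block, it was 0.37 and missed the FDR (edgeR FDR = 0.0628).

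BAD, a BH3-only protein that is kept in the cytoplasm by 14-3-3 proteins when phosphorylated, did not differ beyond the spread. BAD (ENSG00000002330.14, GRCh38 chr11:64269830-64284704, minus strand) had 17.2 and 19.6 CPM in control and 18.7 and 16.5 CPM under the PRMT5 KD label. The groups overlapped, and the log2 fold change was -0.06 with a 95% confidence interval from -0.41 to 0.29 (edgeR FDR = 0.735). BAD shares 404 exon bases with GPR137 on the other strand, which held 1058 and 1330 counts in the control libraries against 1640 and 1323 in those labelled PRMT5 KD, as many as BAD or more. Whether the counting used strand is not given in the sources used here, so reads of the 2 genes may be mixed.

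BIK, another BH3-only gene, was barely detected. BIK (ENSG00000100290.3, GRCh38 chr22:43110750-43129712, plus strand) had 5 and 0 counts in control and 7 in each library labelled PRMT5 KD. The count of 0 allows up to 0.0599 CPM at a floor of 3 counts, for counting error only. BIK stayed under the RPKM filter, and a difference was not detectable at this depth. In the fit without a filter its FDR was 0.369.

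**Figure D2:**
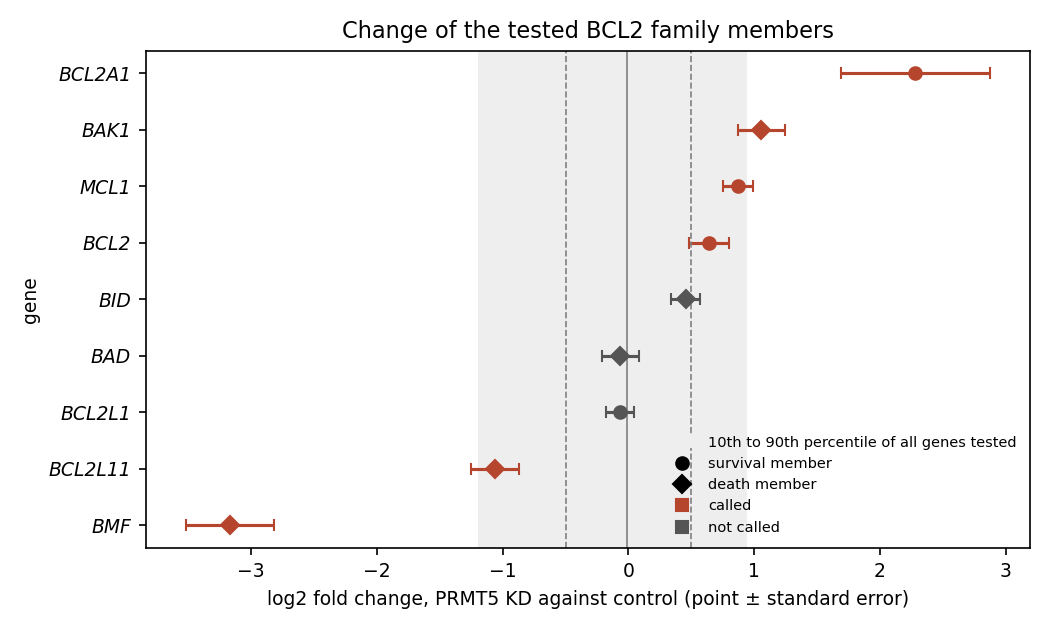
Log2 fold change of the 9 tested members, libraries labelled PRMT5 KD against control, with bars of 1 standard error, dashed lines at the threshold of 0.5 in each direction and a grey band from the 10th to the 90th percentile of all genes tested. BMF at -3.17 and BCL2A1 at 2.28 lie outside that band, as does BAK1 at 1.06, while BCL2L1 and BAD lie near 0.

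The levels of the members were then compared with each other as RPKM, which is CPM per kilobase of the union of a gene's exons. The order that follows depends in part on that choice of length. In control, MCL1 (34.0 and 31.4 RPKM) and BCL2L1 (30.7 and 33.2 RPKM) were highest and overlapped. BAK1 followed at 15.1 and 14.3 RPKM, then BID at 11.96 RPKM in both libraries. BMF had 7.39 and 11.98 RPKM, a range that took in both BID and BAD (10.0 and 11.5 RPKM). BCL2L11 had 5.84 and 6.72 RPKM, and BCL2A1 and BCL2 were between 1.05 and 1.55 RPKM.

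In the libraries labelled PRMT5 KD, MCL1 stood alone at the top with 60.4 and 59.1 RPKM. BCL2L1 (29.3 and 31.8 RPKM) and BAK1 (25.05 and 36.0 RPKM) overlapped below it. BID had 17.3 and 15.5 RPKM and BAD 10.9 and 9.67 RPKM. BCL2A1 had 10.2 and 3.30 RPKM and lay below BAD in both libraries. Its rank against BCL2L11 (2.51 and 3.52 RPKM) differed between them. BMF had moved to 1.34 and 0.821 RPKM, below BCL2 at 1.87 and 1.49 RPKM. By coding length, BCL2L1 (16.6% and 17.8% of the summed level of the 10 members) lay above BAK1 (10.9% and 15.5%) without overlap. BCL2 (3.66% and 2.87%) then lay above BCL2A1 (2.41% and 0.768%).

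A share within a library does not depend on how libraries are scaled to each other, so the make-up of the summed RPKM of the 10 members was described, without a test. The sum was 118 and 123 RPKM in control and 159 and 161 RPKM under the PRMT5 KD label. MCL1 made up 28.9% and 25.4% of it in control against 38.0% and 36.6% under the PRMT5 KD label. BCL2L1 made up 26.1% and 26.9% against 18.4% and 19.7%. The ratio of MCL1 to BCL2L1 in RPKM went from 1.11 and 0.944 to 2.06 and 1.86. Within the 4 survival members alone, MCL1 made up 50.5% and 46.9% of the sum in control against 59.3% and 61.8% under the PRMT5 KD label.

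Among the death members the shares of BMF and BCL2L11 were smaller and that of BAK1 larger under the PRMT5 KD label. BAK1 made up 29.9% and 25.3% of the RPKM of the 6 death members in control against 43.7% and 54.9% under the PRMT5 KD label. BMF went from 14.7% and 21.2% to 2.33% and 1.25%, and BCL2L11 from 11.6% and 11.9% to 4.38% and 5.35%. BMF and BCL2L11 together summed to 13.2 and 18.7 RPKM in control and 3.85 and 4.34 RPKM under the PRMT5 KD label. The 4 survival members together outnumbered that pair by ratios of 5.09 and 3.58 in control against 26.5 and 22.1 under the PRMT5 KD label. The pair is made up of the members called lower, so a larger ratio follows from that choice. The ratio of the 4 survival to the 6 death members moved less, from 1.34 and 1.19 to 1.78 and 1.46. It leaves out PMAIP1, a BH3-only gene that is not among the members. PMAIP1 had 28.1 and 18.5 RPKM in control and 130 and 179 RPKM under the PRMT5 KD label. The 6 death members together had 50.5 and 56.4 RPKM in control and 57.3 and 65.7 RPKM under that label. The 4 survival members together had 67.4 and 66.9 RPKM in control and 102 and 95.7 RPKM under that label. The rise of the ratio thus holds only for the members as listed, and it turns into a fall if PMAIP1 is counted with the death members.

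**Figure D3:**
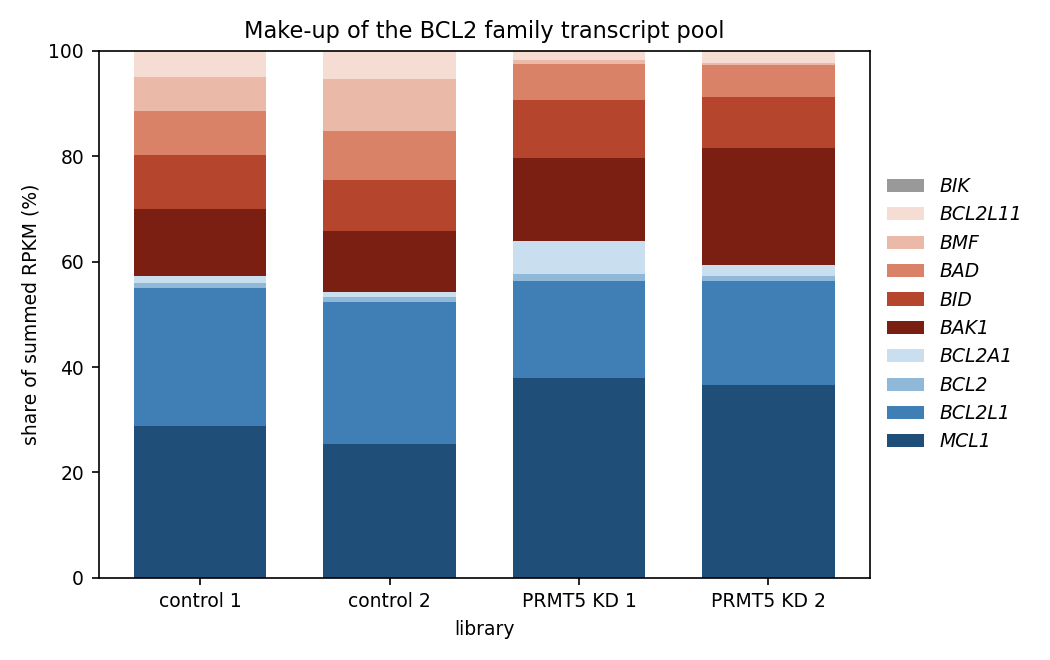
Share of each member in the summed RPKM of the 10 members, one stacked bar per library, with survival members in blue at the bottom and death members in red above. MCL1 takes 28.9% and 25.4% of the control bars and 38.0% and 36.6% of the bars labelled PRMT5 KD, where the bands of BMF and BCL2L11 nearly vanish.

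The rest of the BCL2 family was followed as a list of 13 genes, of which 9 were tested. PMAIP1, BCL2L12 and BNIP3 rose, BNIP3L fell, and the other 5 were not called. That is 44.4% called, against 45.6% of all genes tested (21.2% higher and 24.4% lower). PMAIP1 encodes NOXA, a BH3-only protein that binds MCL1 above all. It had 61.5 and 40.4 CPM in control and 285 and 392 CPM under the PRMT5 KD label, a log2 fold change of 2.73 (standard error 0.27, edgeR FDR = 0.000968). The rise was present in both libraries, and 99.1% of the genes tested had a lower log2 fold change. BCL2L12 went from 7.22 and 6.65 CPM to 19.3 and 19.6 CPM (log2 fold change 1.49, FDR = 0.000557). The mitophagy receptors BNIP3 and BNIP3L moved apart, with log2 fold changes of 0.82 and -0.93. BNIP3L lost its call without control replicate 2 (-0.76, FDR = 0.0762).

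The effector BAX, the partner of BAK1, had 38.0 and 38.3 CPM in control and 49.3 and 43.3 CPM under the PRMT5 KD label, and it was not called (log2 fold change 0.28, FDR = 0.0897). BBC3, which encodes the BH3-only protein PUMA, had a log2 fold change of -0.04 (95% confidence interval from -0.59 to 0.51). BOK, BCL2L2 and BCL2L13 had log2 fold changes of -0.14, -0.03 and 0.18, and the signs of BBC3, BOK and BCL2L2 turned with total counts alone as the scaling. HRK was below the filter, with 9 and 11 counts in control and 71 in each library labelled PRMT5 KD. The median of the 9 genes tested was 0.18.

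Downstream of the mitochondria, most of the genes listed were not called. By the rule 38.5% of them were called, all higher. For all genes tested these shares were 45.6% called and 21.2% called higher. In the list of 13 apoptosome and caspase genes, all of them tested, 5 rose, none fell by the rule and 8 were not called, with a median log2 fold change of 0.23. CASP2 went from 31.5 and 27.7 CPM to 77.3 and 96.4 CPM (log2 fold change 1.55, FDR = 0.000583). CYCS, which encodes the cytochrome c released through the pores, rose by a log2 fold change of 0.93 (FDR = 0.00112). CASP8, whose product cleaves BID, had a log2 fold change of 0.23 and was not called (FDR = 0.261).

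The inhibitors of apoptosis and their antagonists moved in both directions. Of 8 genes, 2 rose, 3 fell and 3 were not called, with a median of 0.00485. That is 62.5% called, against 45.6% of all genes tested (21.2% higher and 24.4% lower). BIRC5 (survivin), a gene of mitotic cells, rose by a log2 fold change of 1.69 (FDR = 0.00367), and BIRC2 rose by 0.70. NAIP fell by 1.13 and BIRC6 fell by 0.72 on the log2 scale. The call on BIRC6 was lost when length and GC trends were removed (-0.37), as its change was then under the threshold.

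In the list of death receptors and adaptors, 3 of the 10 genes tested fell, none rose by the rule and 7 were not called. The share called was 30.0%. Among all genes tested 45.6% were called, and 24.4% were called lower. The median of the list was 0.13. TNFRSF10B, the TRAIL receptor DR5, fell from 400 and 373 CPM to 219 and 186 CPM (log2 fold change -0.93, FDR = 0.00215). TNFRSF1A, the main TNF receptor, fell by 1.09 on the log2 scale, and the decoy receptor gene TNFRSF10D fell by 1.84.

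Genes whose products partner with the family at mitochondria and the endoplasmic reticulum moved in both directions. Of 10 genes, 4 rose, 2 fell and 4 were not called, with a median of 0.16. The share called was 60.0%, against 45.6% of all genes tested (21.2% higher and 24.4% lower). The outer membrane channels VDAC1 and VDAC3 rose, with log2 fold changes of 0.77 and 0.75. The calcium channels ITPR1 and ITPR2, which BCL2 is known to bind, fell by 1.23 and 1.83 on the log2 scale. VDAC3 lost its call without control replicate 2 (FDR = 0.0563).

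The list of genes whose products act on member proteins held 25 names, of which 22 were tested. There 7 rose, 5 fell and 10 were not called, with a median of 0.23. The share called was 54.5%, against 45.6% of all genes tested (21.2% higher and 24.4% lower). HUWE1, a ubiquitin ligase of MCL1, fell from 1339 and 1324 CPM to 858 and 740 CPM (log2 fold change -0.74, FDR = 0.00692). USP9X, which removes ubiquitin from MCL1, fell from 424 and 488 CPM to 233 and 215 CPM (-1.02, FDR = 0.00154). FBXW7, part of another ligase of MCL1, was not called (0.16, FDR = 0.347). The call on HUWE1 was lost with length and GC trends removed (-0.34, FDR = 0.0832). It was also lost without control replicate 1 (FDR = 0.0584) and without control replicate 2 (FDR = 0.0650).

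The kinase gene PIM2, whose product phosphorylates BAD, rose from 5.63 and 5.57 CPM to 78.2 and 37.9 CPM (log2 fold change 3.37, standard error 0.39, FDR = 0.00209). The 14-3-3 gene YWHAH rose by 0.99 and GSK3B, which marks MCL1 for destruction, fell by 0.97. DYNLL1, the dynein light chain that tethers BCL2L11, rose by 0.57 (FDR = 0.00539), and DYNLL2, which tethers BMF, had a log2 fold change of 0.45, under the threshold. DYNLL2 was called with total counts alone as the scaling (0.63, FDR = 0.00641), with filterByExpr (0.52) and with no filter (0.51). DYNLL1 was not called without control replicate 1 (FDR = 0.0538) or with length and GC trends removed (0.45). YWHAZ, another 14-3-3 gene, differed by 0.02 on the log2 scale (95% confidence interval from -0.32 to 0.36).

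Transcription factors known to act on member genes were followed as a list of 20, of which 18 were tested. There 2 rose, 5 fell and 11 were not called, and the median was -0.23. That is 38.9% called, against 45.6% of all genes tested (21.2% higher and 24.4% lower). E2F1, which can act on BH3-only genes, rose from 20.2 and 16.8 CPM to 96.2 and 84.3 CPM (log2 fold change 2.29, FDR = 0.000255). FOXO1 fell from 13.8 and 19.9 CPM to 6.46 and 6.39 CPM (-1.39, FDR = 0.00236), and FOXO4 had a log2 fold change of -0.82 (FDR = 0.00930). FOXO3, best known for acting on BCL2L11, had 183 and 180 CPM in control and 161 and 116 CPM under the PRMT5 KD label and was not called (-0.39, FDR = 0.0922). It was named after its value was seen. TP63 fell by 1.35, from 5.50 and 6.59 CPM to 1.74 and 3.01 CPM. The calls on TP63 and FOXO4 were lost without control replicate 1 (FDR = 0.0584 and 0.0574) and without control replicate 2 (0.106 and 0.0909).

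**Figure D4:**
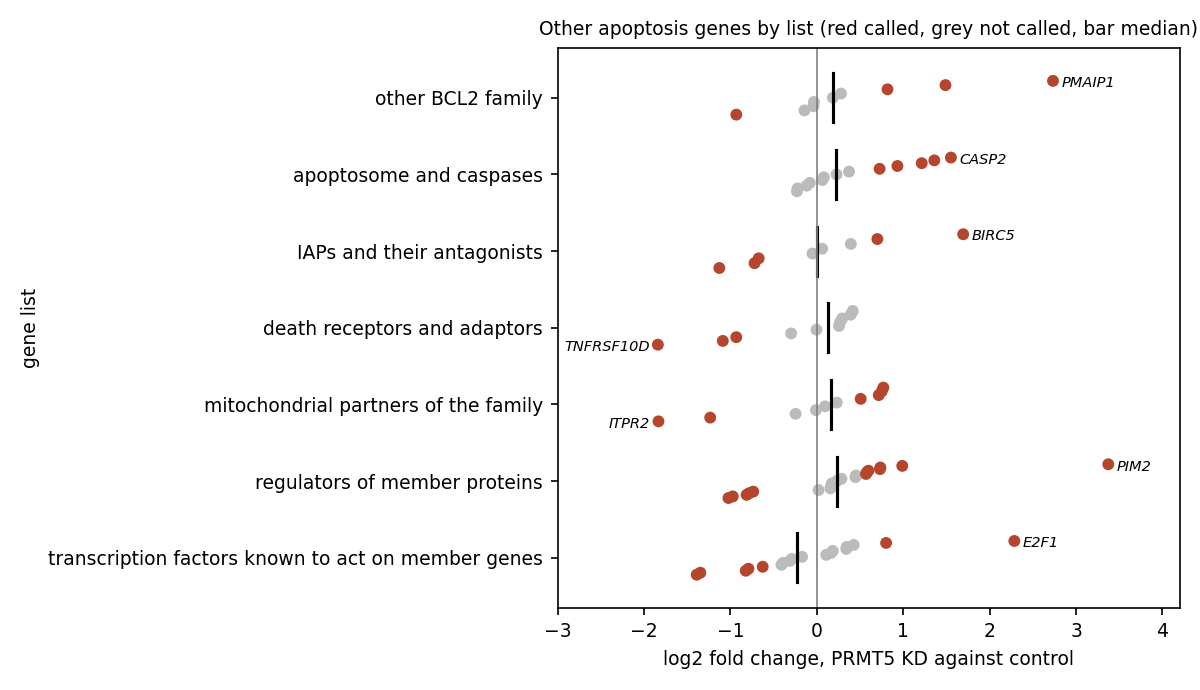
Log2 fold change of the other apoptosis genes, libraries labelled PRMT5 KD against control, by list, with red points for called genes, grey points for the rest and a black bar at each median. PMAIP1 at 2.73, PIM2 at 3.37 and E2F1 at 2.29 lie farthest to the right, and TNFRSF10D at -1.84 and ITPR2 at -1.83 farthest to the left.

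Across these lists, between 3 and 12 genes of each were called, which is 30.0% to 62.5% of those tested, on both sides of the 45.6% of all genes. Scaling by total counts alone moved the median over all genes tested from -0.01 to 0.17 on the log2 scale. The directions of the 6 called members were the same under that scaling, whereas BCL2L1 and BAD moved above 0 (0.11 each) without a call.

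**Figure D5:**
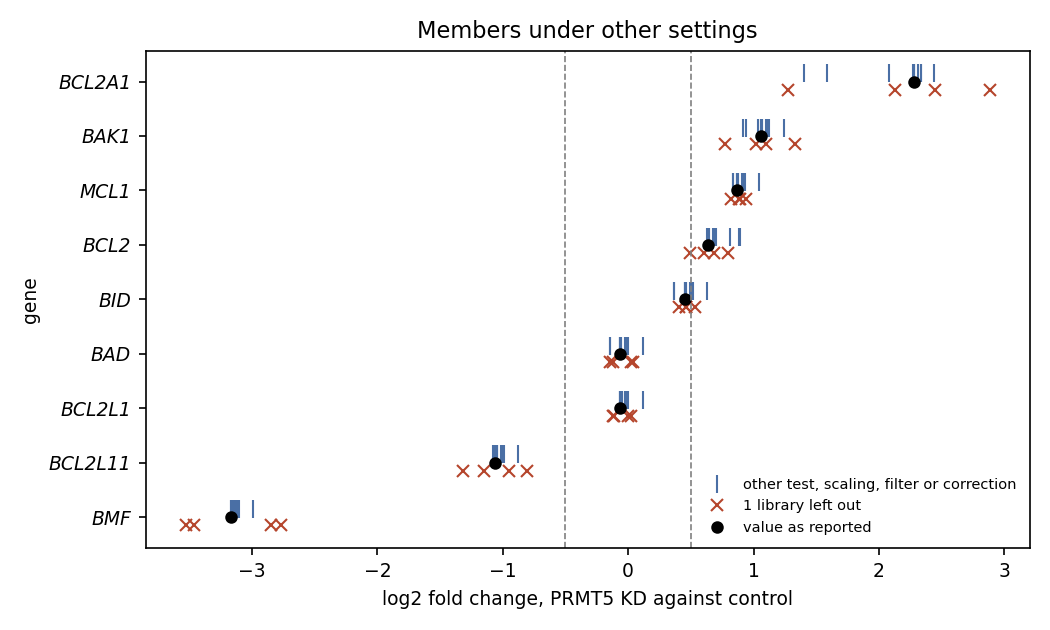
Log2 fold change of each tested member under other settings, with a black point for the value as reported, blue ticks for other tests, scalings, filters and corrections, and red crosses for fits without 1 library. The 6 called members stay on their side of 0 in all fits, while BCL2L1 and BAD fall on both sides of it.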

How the data were processed

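RNA-seq libraries from UMSCC74B cells were analysed, 2 with control shRNA and 2 labelled PRMT5 KD, grouped by their titles. The authors deposited expected counts per gene symbol, 1 table per library, without normalization. The submitters' processing notes list FastQC, Trim Galore, STAR, Salmon and DESeq2 on GRCh38, without roles, whereas the methods describe FeatureCounts on protein-coding genes. The tables also hold rRNA and miRNA names and decimals, so the methods do not describe them. Date-like names (28 of 29744 entries, 0.150% to 0.161% of the counts) were left out, rows with the same name were summed, and counts were rounded. Names were matched to GENCODE 44 by symbol (21693), RefSeq gene number (1118) or older symbol (1534), and 18944 were protein-coding.

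Only protein-coding names were compared, and a gene had to reach 0.5 RPKM in the 2 control libraries or in the 2 labelled PRMT5 KD. The comparison was made with edgeR 4.0.16 (quasi-likelihood, robust, TMM) in R 4.3.3. The standard error is the absolute log2 fold change over the square root of F. Intervals use the test's degrees of freedom. CPM and RPKM use TMM-scaled library sizes over the genes tested and union exon lengths. TMM factors were between 0.934 and 1.09. Counts were simulated for this comparison over 11911 genes with 200 changed. Of those with an absolute log2 fold change of 1, 81.5% were recovered, and of those with 2, 98.9%. Among the calls, 15.6% were unchanged genes, above the FDR used. In the data 45.6% of the genes tested were called, a far larger part than was changed in the simulation. The simulated shares may therefore not carry over to the data. Alternatives included DESeq2 1.42.0, other scalings and filters, a replicate block, omission of each library, and offsets that remove trends with exon length and GC (natural splines, 4 df).

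The members and lists were chosen with earlier results of these data known, and the lists were written from general knowledge. Named genes are the members, the other family genes tested, for each further list at most 4 called genes by absolute log2 fold change, and genes acting directly on a member. Protein sequences were not used here, so the planned description of the BH3 motif was not made. GC was that of the longest transcript. Some genes that the rule names are not reported here.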

Additional observations from a re-analysis of the deposited data

How the results depend on the processing

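MCL1 and BMF kept their call and direction in all 15 other fits at the same fold threshold, and no called member reversed. Scaling by total counts alone turned BCL2L1 (0.11) and BAD (0.11) above 0 and brought BID past the threshold (0.63), with 3512 genes higher and 2205 lower against 2525 and 2904. BID was also called with filterByExpr (0.52) and with no filter (0.51), and BAD reversed with filterByExpr (0.00205). BID missed the FDR with length and GC trends removed and the replicate block added (0.37, edgeR FDR = 0.0628). With length and GC trends removed, BCL2A1 was not called (1.58), 3 IAP genes and 5 death receptor genes were called, and 5 death receptor genes with the replicate block added. With a fold threshold of 1 on the log2 scale, 2566 genes and 4 members (without MCL1 and BCL2) were called. The lists then held 2 in the other BCL2 family, 3 in the caspase list, 2 in the IAP list, 2 in the mitochondrial list, 2 in the regulator list and 3 in the transcription factor list. With coding length, the survival share under the PRMT5 KD label was 65.9%, that of MCL1 43.8%, and that of BCL2L1 21.9% in control and 17.2% under the PRMT5 KD label. BAK1 then lay below BID and BMF in control, and BCL2 lay above BCL2A1 in all 4 libraries.

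Leaving out each library gave 3097 to 5734 genes, 2 to 7 members, 3 to 6 death receptor genes, 7 to 13 regulator genes and 3 to 10 transcription factor genes called. The lone library of a group was then assumed to vary like those of the other group. The log2 fold change was 0.495 to 0.80 for BCL2, -0.12 to 0.0255 for BCL2L1, 1.28 to 2.88 for BCL2A1, -1.32 to -0.80 for BCL2L11, 0.77 to 1.33 for BAK1, 0.40 to 0.54 for BID, -0.15 to 0.0414 for BAD and 0.57 to 0.78 for PRMT5. BCL2L1 reversed without PRMT5 KD replicate 1 (0.0255), and BAD without control replicate 2 (0.0414) and without PRMT5 KD replicate 2 (0.0265). PRMT5 was not called without control replicate 2 (0.58, edgeR FDR = 0.0670). The cause of these differences was not tested.

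With the replicate number as a block, 5213 genes were called against 5429, and 6 members as before. The deviations of same-numbered libraries correlated at r = -0.10 across genes, so the numbers were not taken to pair the libraries. With the numbers crossed, an alternative chosen after seeing the data, 5494 genes were called. DESeq2 called 5537 genes and the same number of members, 6. Of 29 named genes called in the other lists, 22 kept the call in every alternative apart from the fold threshold, and none reversed. Among the members, only BIK was too low to pass the filter, and BCL2A1 was tested from 61 and 62 counts in control.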
